A study of Homo sapiens with 6 samples.

Results

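WNT ligands are secreted, lipid-modified glycoproteins that bind Frizzled receptors on nearby cells. Some of them stabilise β-catenin, the arm of the pathway that maintains the stem cells of the intestinal crypt and is constitutively active in most colon cancers, and others act mainly through β-catenin-independent routes on cell shape and movement. Several WNT genes lie beside a paralog in the genome, among them WNT6 with WNT10A and WNT1 with WNT10B.

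The ligands were taken from a list of 10 WNT genes, and every probe set whose RefSeq transcript belongs to a listed gene was used. Of the 10, 9 were found, each with 1 probe set, out of 1259 probe sets and 927 named genes on the array. WNT3A had no match and was not analysed here. The list was chosen with the treated-minus-untreated differences of these same arrays known and was thus selected on measured values: all 7 WNT ligands that pass the threshold below are on it, and the 9 WNT ligands of the array that are off it do not pass. The differences of the listed ligands are therefore given as a description, with no p-value.

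The cells were HCT-15, an established human colon cancer line. One group of 3 arrays came from cells left untreated and the other 3 from cells given 5-aza-2'-deoxycytidine, a cytosine analogue that traps DNA methyltransferases and so lowers DNA methylation. The submitters wanted to learn how glycan-related genes respond to the drug. The dose and duration are not stated in the labels, which also do not say whether the 3 replicates were grown separately, so the spread between them may be technical. The title of untreated replicate 3 contradicts its source name and treatment entry, which were followed. Its values correlated at 0.9978 and 0.9982 with the other untreated arrays and at 0.9831 to 0.9844 with the treated ones. Array medians were 5.81 to 5.92 on the log2 scale, and the number of arrays limits the precision. Of 15 listed colon epithelial markers 2 were measured, LGALS4 (9.54 in untreated cells) and MUC13 (7.97). The log2 of the summed unlogged values of 4 of 15 leukocyte markers was 6.94 to 6.96 on untreated and 6.88 to 6.96 on treated arrays, and that of 6 of 15 stromal and endothelial markers was 6.56 to 6.80 and 6.54 to 6.72, so these sums overlapped between the groups. Among the single markers MUC13 (log2 change 0.96) and PECAM1 (0.30) were called higher in treated cells and LGALS4 (-0.51), PDGFRB (-0.48) and CD22 (-0.25) lower, and their part in the results was not tested.

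The methyltransferases that the drug traps act mainly on cytosines followed by guanine. Promoter windows with each CG pair in capitals are therefore shown for the listed ligands of the 2 neighbouring pairs that were matched to one. The window of the ligand called lower is shown too. All windows run from 250 bases before to 50 bases after the start of transcription, 5′ to 3′ on the gene's own strand, from RefSeq (GRCh38.p14). WNT6 lies at chr2:218859555-218859854 and WNT10A at chr2:218880602-218880901, WNT1 at chr12:48978072-48978371 and WNT8B, the ligand called lower in treated cells, at chr10:100462759-100463058, all on the plus strand.
WNT6: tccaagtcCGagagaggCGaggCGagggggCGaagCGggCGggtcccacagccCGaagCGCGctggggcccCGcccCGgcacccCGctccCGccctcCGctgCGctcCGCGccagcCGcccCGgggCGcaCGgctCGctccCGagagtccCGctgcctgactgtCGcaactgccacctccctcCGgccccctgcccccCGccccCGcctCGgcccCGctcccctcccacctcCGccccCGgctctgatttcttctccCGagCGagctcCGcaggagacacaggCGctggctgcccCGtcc
WNT10A: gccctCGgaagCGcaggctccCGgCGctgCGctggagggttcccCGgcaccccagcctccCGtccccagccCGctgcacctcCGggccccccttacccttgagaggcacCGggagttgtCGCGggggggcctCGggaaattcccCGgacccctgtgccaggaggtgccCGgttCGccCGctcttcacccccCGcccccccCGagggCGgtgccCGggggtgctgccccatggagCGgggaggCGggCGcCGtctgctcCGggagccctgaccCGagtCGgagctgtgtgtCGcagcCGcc
WNT1: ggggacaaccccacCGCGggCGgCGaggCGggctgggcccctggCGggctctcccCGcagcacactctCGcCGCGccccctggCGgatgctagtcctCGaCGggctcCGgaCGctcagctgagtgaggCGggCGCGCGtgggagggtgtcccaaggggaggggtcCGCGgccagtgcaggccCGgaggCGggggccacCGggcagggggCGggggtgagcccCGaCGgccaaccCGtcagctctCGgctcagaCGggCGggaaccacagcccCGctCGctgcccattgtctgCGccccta
WNT8B: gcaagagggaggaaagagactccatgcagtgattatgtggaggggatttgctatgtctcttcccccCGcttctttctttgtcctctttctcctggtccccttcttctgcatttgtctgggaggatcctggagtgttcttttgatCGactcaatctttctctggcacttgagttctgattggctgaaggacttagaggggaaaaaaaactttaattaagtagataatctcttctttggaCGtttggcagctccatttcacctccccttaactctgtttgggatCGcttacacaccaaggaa

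These windows held 37 CG pairs in WNT6, 30 in WNT10A and 34 in WNT1, against 4 in WNT8B. The pair CG, which reads the same on both strands, occurs at least once in 95.8% of the 27305 promoter windows of this length, with a median of 14. The median was 22 over the genes of the array that had a window, 30 over the 15 WNT ligands that had one, and 33 over those that are not on the list, so the counts of WNT6, WNT10A and WNT1 lay near those of their family. Fewer CG pairs than in WNT6 were found in 88.9% of all windows, and fewer than in WNT8B in 25.3%. The other listed ligands with a window were WNT16 with 20, WNT5A with 21 and WNT4 with 47. Off the list the counts ran from 4 in WNT8A to 53 in WNT9A, and neither of these ligands was called. Windows were matched for 15 of the 18 WNT ligands of the array. Whether CG content goes with the change in these genes was not tested, and methylation itself was not measured.

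Treated cells had higher values of 6 of the 9 ligands and lower values of 3. WNT6 stood out with a 2.16-fold higher value, followed by its neighbour WNT10A (1.45-fold), WNT16 (1.32-fold), WNT11 (1.3-fold), WNT1 (1.24-fold) and WNT10B (1.19-fold). WNT8B was 1.31-fold lower. In limma's fit across the array, a probe set was called where its adjusted p was under 0.05. By this rule 6 of the 9 ligands were called higher, where 18.0% of all probe sets were, and 1 was called lower, where 16.8% were. All calls together made 7 of 9, beside 34.8% of all probe sets, and in 8 of 9 the 2 groups did not overlap, beside 46.1%. These shares carry no weight for the listed ligands, since the list was chosen on this contrast. With the arrays centred on their medians, 5 of the 9 were called higher and 2 lower, and over the array the split moved from 227 higher and 211 lower to 197 and 311.

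**Figure D1:**
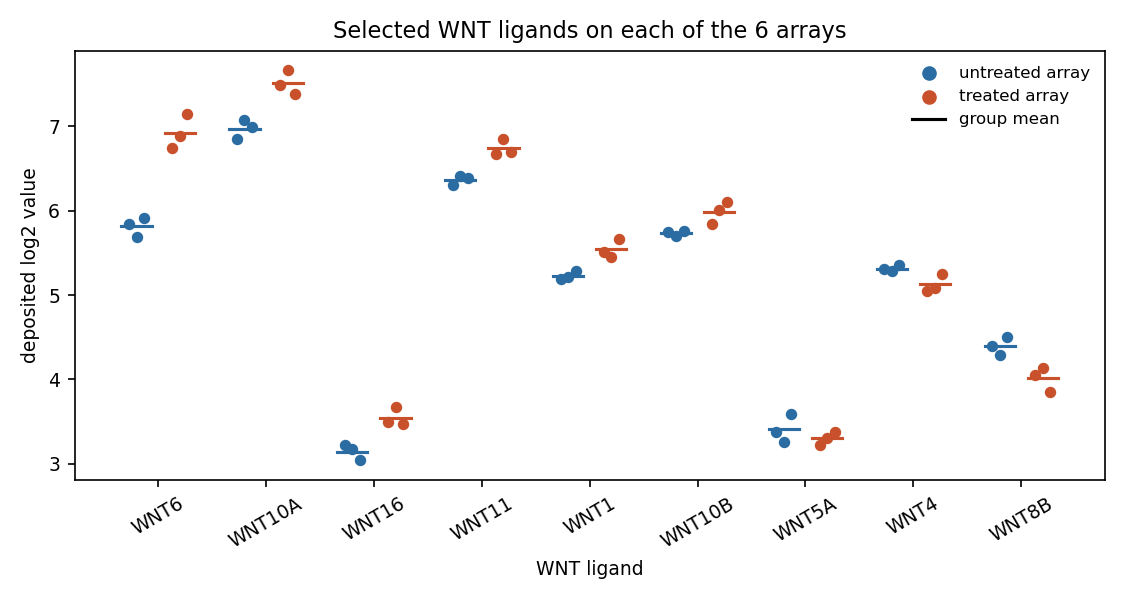
Deposited log2 values (vertical axis) of the 9 listed WNT ligands on the 3 untreated and 3 treated arrays, 1 point per array, with a line at each group mean. The treated points of WNT6 lie at 6.74 to 7.14, above the untreated points at 5.69 to 5.91, and WNT5A is the ligand whose groups overlap.

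The 18 WNT ligands matched on the array, listed or not, form a set that was not picked by its values. Of these 18, 6 were called higher (33.3%, beside 18.0% of all probe sets), 1 lower (5.56%, beside 16.8%) and 11 not called. The total of 7 (38.9%) was close to the 34.8% of all probe sets and the 37.3% of all named genes. The median log2 change of the 18 was -0.04, against -0.01 over all probe sets. Lower calls depended on the scaling: with quantile-normalized values 5 of the 18 were called higher and 3 lower, and the same counts came from median centring. The genes called lower differed: WNT8B, WNT2 and WNT9A with quantile-normalized values, and WNT8B, WNT4 and WNT5B with median centring. The 9 ligands that are not on the list had log2 changes from -0.21 (WNT5B) to 0.18 (WNT2B).

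**Figure D2:**
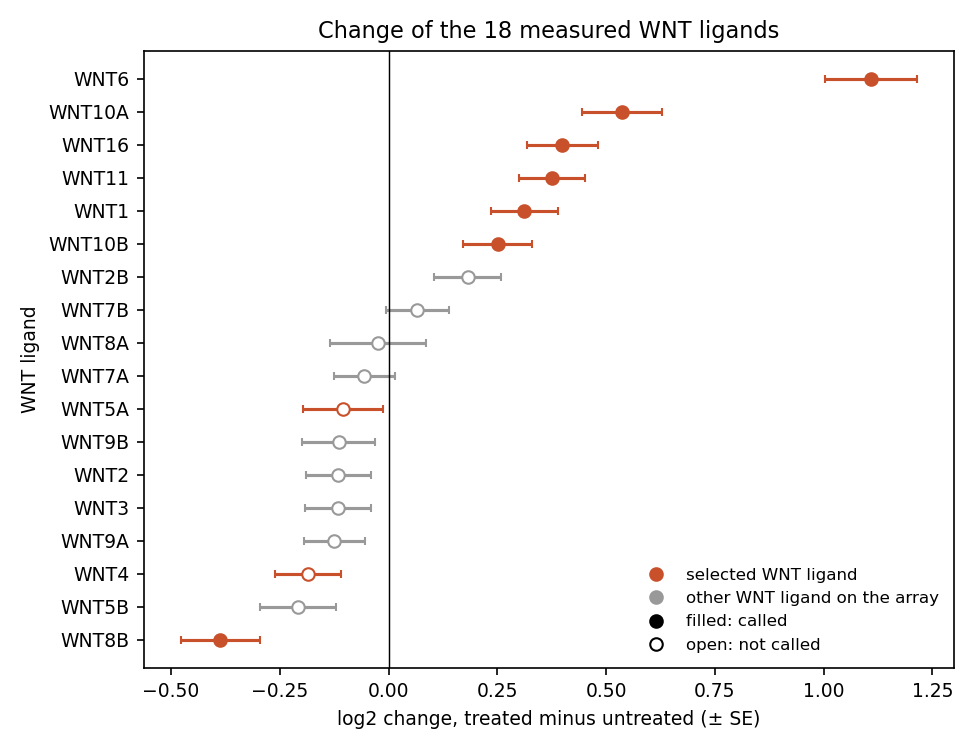
Log2 change, treated minus untreated, with its standard error (horizontal axis) for the 18 WNT ligands of the array, coloured by whether they are on the list and filled where called. WNT6 lies at 1.11, apart from WNT10A at 0.54, and WNT8B at -0.39 is the lowest.

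WNT6, a ligand of epithelia that induces tubule formation in the kidney and somites in the embryo, read 5.84, 5.69 and 5.91 on the untreated arrays and 6.74, 6.88 and 7.14 on the treated ones. Every treated array was above every untreated one, by more than the range within either group. The means were 5.81 ± 0.11 and 6.92 ± 0.20 (SD, n = 3 each), a log2 change of 1.11 ± 0.11 (SE). Of the array's probe sets 3.57% had a larger absolute change, and WNT6 was number 34 among the rises. This place is a description, since the list was chosen on the same contrast. WNT6 stayed between 1.00 and 1.20 in all 11 alternatives. Of these, an intensity trend, a replicate block and leaving out the dimmest probe sets cannot alter a log2 change here.

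WNT10A, a β-catenin-activating ligand needed for teeth, hair and sweat glands, read 6.85, 7.07 and 6.99 without the drug and 7.48, 7.66 and 7.38 with it. The groups did not overlap, and the lowest treated value was above the highest untreated one by more than the untreated range. Its log2 change was 0.54 ± 0.09 (SE), from 6.97 ± 0.11 to 7.51 ± 0.14 (SD, n = 3 each). WNT6 and WNT10A follow one another on the same strand of chromosome 2 with 0 other protein-coding genes between them in the RefSeq table.

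The gap between these neighbours was taken within each array and compared between the groups. The log2 value of WNT6 minus that of WNT10A was -1.01, -1.38 and -1.08 on the untreated arrays and -0.74, -0.78 and -0.24 on the treated arrays. Treated replicate 3 gave the smallest gap, and the groups did not overlap. The gap changed by 0.57 ± 0.21 (SE, n = 3 each), a description of the probe sets with no test, which says nothing about the relative amounts of the transcripts. Without treated replicate 3 the change of the gap was 0.40, and over all arrays left out in turn it was 0.40 to 0.67.

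WNT1, the founding member of the family and a β-catenin activator of the midbrain and of bone, read 5.19, 5.21 and 5.29 on untreated and 5.51, 5.45 and 5.66 on treated arrays. The groups did not overlap and the log2 change was 0.31 ± 0.08 (SE). WNT10B, which favours bone over fat formation, read 5.74, 5.70 and 5.75 on untreated and 5.85, 6.01 and 6.10 on treated arrays. The 3 untreated values lay close together, the groups did not overlap, and the log2 change was 0.25 ± 0.08 (SE). Its call was the least stable of the 7, and 8 of 11 alternatives lost it. It was lost when any single untreated array was left out (log2 change 0.26 without replicate 1, 0.23 without replicate 2 and 0.26 without replicate 3), and likewise without treated replicate 2 (0.24) or 3 (0.19).

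WNT1 and WNT10B are direct neighbours on chromosome 12, also with 0 protein-coding genes between them. WNT1 minus WNT10B was -0.56, -0.49 and -0.47 on the untreated arrays and -0.33, -0.55 and -0.44 on the treated arrays. Here the groups overlapped, and the gap changed by 0.06 ± 0.07 (SE, n = 3 each), less than its error. Another neighbouring pair, WNT3 and WNT9B on chromosome 17, is not on the list. Its log2 changes were -0.12 ± 0.08 and -0.11 ± 0.08 (SE), neither called, and the gap changed by -0.0016 ± 0.06. WNT9A, which has 1 protein-coding gene between it and the unmatched WNT3A, changed by -0.12 ± 0.07. Whether the gap between WNT6 and WNT10A changed more than that between WNT1 and WNT10B was not tested.

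**Figure D3:**
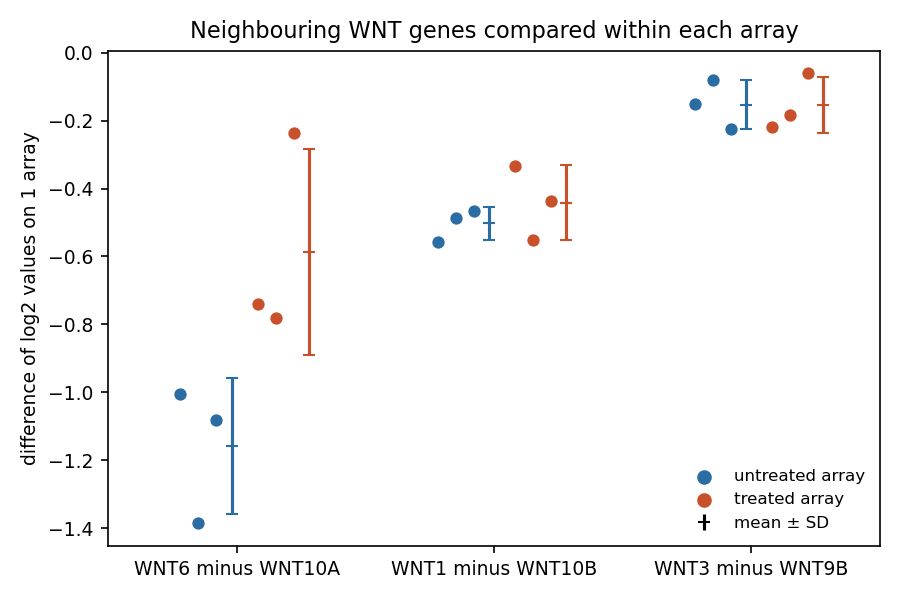
Difference of the log2 values of 2 neighbouring WNT genes on 1 array (vertical axis), for 3 pairs, with a point for each untreated and treated array and the mean ± SD of each group beside them. The treated points of WNT6 minus WNT10A lie at -0.78 to -0.24, above the untreated points at -1.38 to -1.01, and in the other pairs the groups overlap.

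WNT11, a mainly β-catenin-independent ligand that directs cell movement in gastrulation and branching of the kidney, read 6.30, 6.41 and 6.39 on untreated and 6.67, 6.85 and 6.70 on treated arrays. All treated values were higher, with a log2 change of 0.38 ± 0.08 (SE). WNT16, a ligand that protects cortical bone, read 3.22, 3.17 and 3.04 on untreated and 3.49, 3.67 and 3.47 on treated arrays. The groups did not overlap, and the log2 change was 0.40 ± 0.08 (SE). WNT16 was a dim probe set: 10.4% of all probe sets had a mean at or below its own.

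WNT5A, the best-known β-catenin-independent ligand, read 3.38, 3.26 and 3.59 on untreated and 3.23, 3.31 and 3.38 on treated arrays. The groups overlapped, and the log2 change of -0.10 ± 0.09 (SE) was not called. Its probe set is also dim, with 10.9% of all probe sets at or below its mean, and its name carries the ending that marks sets able to bind more than one transcript. WNT4, a ligand of kidney and female reproductive tract development, read 5.31, 5.28 and 5.35 on untreated and 5.05, 5.09 and 5.25 on treated arrays. Its groups did not overlap, but the log2 change of -0.19 ± 0.08 (SE) was not called. It was called without treated replicate 3 (-0.25) and after median centring (-0.25).

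WNT8B, a ligand of the developing forebrain, read 4.40, 4.29 and 4.51 on untreated and 4.06, 4.13 and 3.85 on treated arrays. Every treated value was below every untreated one, and the log2 change was -0.39 ± 0.09 (SE). It was the one ligand called lower, and it stayed between -0.50 and -0.31 in the 10 alternatives that kept its probe set. Of these, the intensity trend and the replicate block cannot alter its log2 change. In order of log2 change, WNT6 was above WNT10A by more than the sum of their standard errors. From WNT10A through WNT16, WNT11, WNT1 and WNT10B each neighbour in the order differed by less than that sum.

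**Figure D4:**
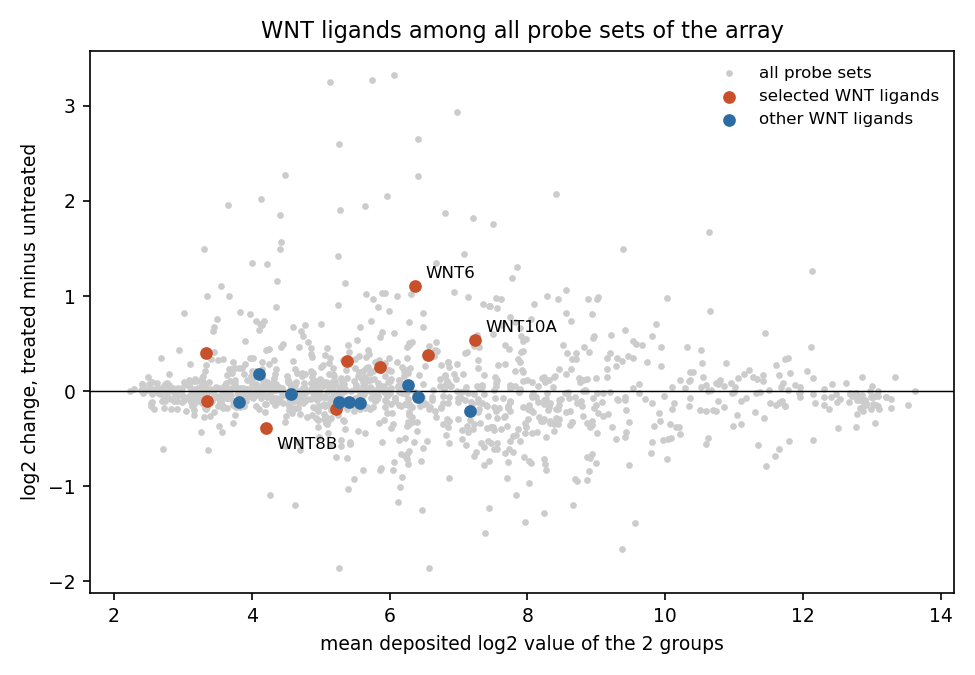
Mean of both group means of the deposited log2 values (horizontal axis) against log2 change, treated minus untreated (vertical axis), for all 1259 probe sets in grey and the 18 WNT ligands in colour. WNT6 at a change of 1.11 is the WNT ligand farthest from 0, while the array holds changes from -1.86 to 3.32.

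The genes whose values followed WNT6 most closely over the 6 arrays were GFRA3, a co-receptor of the GDNF family, COL9A2, a chain of collagen IX, and FGF11, an intracellular FGF homologous factor. Likeness was the Euclidean distance between values centred on each probe set's own mean, and it was 0.214 for GFRA3, 0.231 for COL9A2 and 0.240 for FGF11, with a median of 1.41 over all named genes. Their log2 changes were 1.13, 1.03 and 0.97. For WNT8B the closest were B4GALT7, a galactosyltransferase of the glycosaminoglycan linkage region (distance 0.0991), the neurotrophin BDNF (0.148) and FIBP, which binds acidic FGF (0.168), with a median of 0.596. Genes were picked for this likeness, which rests mostly on the difference between the 2 groups.

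Among the partners of the ligands, a secreted inhibitor and the receptor FZD5 were higher in treated cells and the receptors FZD2 and FZD7 lower. The partner lists were written with earlier results of these data known, and most genes named from them have the smallest p of their list. Their adjusted p-values and the shares called are therefore a description and carry no weight as a test. SFRP1, a secreted Frizzled-like protein that binds WNT proteins outside the cell, rose 3.74-fold, from 4.34 to 6.24 (log2 change 1.90 ± 0.22 SE, limma adjusted p = 5.5e-05). It was the only 1 of 18 listed secreted inhibitors that was matched. Of 20 listed receptors and co-receptors 11 were matched, of which 4 rose, 3 fell and 4 were not called (63.6% called, beside 34.8% of all probe sets), with a median log2 change of 0.19. FZD5, a Frizzled of the intestinal crypt, rose from 7.79 to 8.79 (1.00 ± 0.11 SE, adjusted p = 4.53e-05). FZD2, which also receives WNT5A, fell from 8.13 to 6.64 (-1.49 ± 0.08 SE, adjusted p = 2.21e-07). FZD7 was also called lower, from 9.25 to 8.06 (-1.19 ± 0.10 SE). SMO, 1 of the 4 rises (0.67 ± 0.10 SE, adjusted p = 0.000275), is a Frizzled-like protein of Hedgehog signalling and does not bind WNT. Both SMO and FZD7 were named after their values were seen.

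Of 6 matched genes that are WNT targets in some tissues 2 rose and 2 fell (66.7% called, beside 34.8% of all probe sets), with a median log2 change of -0.01. The hyaluronan receptor CD44 had a mean of 3.13 without the drug and rose by 0.63 ± 0.08 (SE) on the log2 scale (adjusted p = 0.000124) and the angiogenic factor VEGFA fell by 0.92 ± 0.09 (adjusted p = 1.28e-05). Both are targets of other pathways too. Heparan sulfate proteoglycans hold WNT proteins at the cell surface, and their list also contains enzymes that build or modify their chains. Of 22 matched genes 2 rose and 3 fell (22.7% called, beside 34.8% of all probe sets), with a median log2 change of -0.01. The 6-O-sulfotransferase HS6ST2 had a mean of 2.68 without the drug and rose by 1.96 ± 0.11 (SE) on the log2 scale (adjusted p = 3.96e-07), and glypican GPC4 fell by 0.54 ± 0.09 (adjusted p = 0.000983). CD44 and HS6ST2 were dim, with 11.9% and 15.1% of all probe sets at or below their means over the 6 arrays. RHOA, the single matched gene of 31 intracellular ones, was not called (12.28 and 12.31, adjusted p = 0.873).

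Over all 41 matched partners 9 rose and 8 fell (41.5%), near the 34.8% of all probe sets, and their median log2 change was 0.02. Median centring turned this split into 6 rises and 9 falls. Without untreated replicate 2, 7 rose and 4 fell. None of the genes for WNT secretion (5 listed) or of the R-spondin axis (9 listed) was matched, so the release of the ligands was not analysed here.

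**Figure D5:**
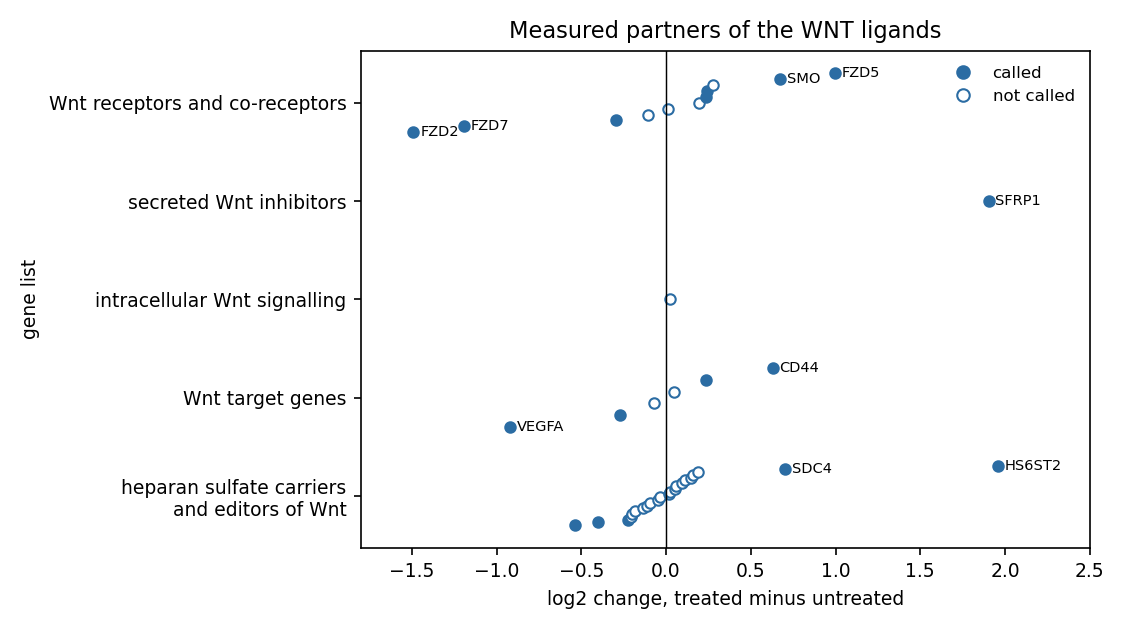
Log2 change, treated minus untreated (horizontal axis), of the 41 matched partners of the WNT ligands by gene list, 1 point per gene, filled where called. SFRP1 at 1.90 and HS6ST2 at 1.96 lie farthest to the right and FZD2 at -1.49 farthest to the left.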

How the data were processed

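Biotin-labelled RNA of the 6 samples was hybridised to Affymetrix arrays, per the labels' protocols. The values are log2 intensities that the authors deposited after RMA, per the submitters' processing notes; that they are log2 was read from their range, 2.13 to 13.67. RMA draws the differences of dim probe sets together. Detection calls and scanner files were not used here, and the RMA settings, the platform and the build were not given in the sources used here. Columns of values left unused numbered 0.

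Transcripts in probe set names were matched without versions to RefSeq symbols (GRCh38.p14, names and gene order only), which gave 1 symbol for 1043 of 1259 probe sets. The set with the highest mean stood for a gene. A model with 1 treatment term was fitted in R 4.3.3 with limma 3.58.1 (lmFit, eBayes, two-sided, Benjamini-Hochberg over 1259 probe sets). It was also run on simulated data with independent normal noise, which cannot show what technical replicates or array-wide shifts do to the calls. Errors of log2 changes are standard errors of this fit; those of gaps between neighbours use the pooled SD of the arrays.

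The members and gene lists were chosen with earlier results of these data known. Named were all WNT ligands, the called gene with the smallest p in each direction of each partner list, and the 3 nearest profiles of the highest and lowest member. SMO and FZD7 were added after their values were seen. Alternatives were quantile normalization, median centring, leaving out the dimmest probe sets (839 stayed), an intensity trend, a replicate block, each array left out, and an adjusted p under 0.01. They were applied to all 18 WNT ligands together only after the data were seen.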

Additional observations from a re-analysis of the deposited data

How the results depend on the processing

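WNT6, WNT10A, WNT16, WNT11, WNT1 and WNT8B kept direction and call in every alternative that kept their probe sets, with adjusted p under 0.05. The alternatives reuse the arrays on which the list was chosen, so this stability is a description and carries no weight as a test. Without the dimmest probe sets WNT16, WNT8B and WNT5A were not tested, so 0 of the listed ligands and 0 of all WNT ligands were called lower. Lower calls numbered 2 of the listed ligands after median centring, against 1. Among all WNT ligands they numbered 3 after median centring and 3 after quantile normalization, against 1. Median centring moves every log2 change by the same amount, here -0.0673. Quantile normalization moved the median log2 change over all probe sets by -0.0422, and its part in these calls was not tested. With each array left out in turn the lower calls ranged from 1 to 2 in both sets. Of the ligands off the list, WNT2B was called without untreated replicate 3 (0.24), WNT5B without treated replicate 2 (-0.28) and after median centring (-0.28), and WNT2 (-0.23) and WNT9A (-0.20) after quantile normalization. WNT8A and WNT7B, not called, changed sign between alternatives. Among the partners, arrays left out in turn gave 4 to 8 falls and 11 to 16 calls in all, and an adjusted p under 0.01 gave 4 falls and 10 calls, fewer by its construction. The replicate numbers did not pair the arrays (correlations of deviations -0.274, 0.0372 and -0.111 for same-numbered arrays). For differently numbered arrays these correlations ran from -0.328 to 0.422. The highest joined untreated 1 with treated 3 (0.422), untreated 2 with treated 1 (0.413) and untreated 3 with treated 2 (0.225). Whether the arrays pair under other numbers was not tested, and the replicate block uses the given numbers. With the replicate block 394 probe sets were called against 438, and 6 of the 9 ligands, WNT10B being lost; 12 partners were called against 17. BDNF lost its call with the block, without untreated replicate 3 and without treated replicate 3. Each listed ligand has 1 probe set, so the choice of another was not run. The values hold no detection calls, so how far WNT16, WNT5A and WNT8B lie above background is unknown, as it is for CD44 and HS6ST2, which also drop out with the dimmest probe sets.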
